A study of Mus musculus with 60 samples.

Results

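The genes described here are 36 components of the excitatory synapse. They encode ionotropic and metabotropic glutamate receptors, auxiliary subunits, postsynaptic scaffold proteins and calcium/calmodulin-dependent kinase II (CaMKII). Some of the metabotropic receptors are presynaptic or also made by glia, as given below. The 36 genes were taken by name from the 47643 rows of a table of hippocampal RNA-seq levels in TPM, a read number per gene length scaled to a fixed library total. All of them met the minimum of a mean of 1 TPM over the 60 libraries. The list held 4 AMPA receptor subunits (Gria1 to Gria4), 6 NMDA receptor subunits (Grin1, Grin2a to Grin2d and Grin3a), 5 kainate receptor subunits (Grik1 to Grik5), the delta receptor Grid1 and 6 metabotropic receptors (Grm2, Grm3, Grm4, Grm5, Grm7 and Grm8). It also held 4 transmembrane AMPA receptor regulatory proteins (Cacng2, Cacng3, Cacng7 and Cacng8), 4 membrane-associated guanylate kinases (MAGUKs; Dlg1 to Dlg4), Shank1 to Shank3 with Homer1, and the CaMKII subunits Camk2a and Camk2b.

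Glutamate released from a nerve terminal opens AMPA receptors, which carry most of the fast excitatory current, while NMDA receptors admit calcium when release and depolarization coincide. The calcium activates CaMKII, one of the most abundant proteins of the postsynaptic density, and this step is central to the synaptic plasticity for which the hippocampus is known. Kainate receptors tune release and excitability, metabotropic receptors act through G proteins, and MAGUK, Shank and Homer proteins tie the receptors to one another and to the actin skeleton.

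The study followed the hippocampus during cancer cachexia, the wasting that accompanies some tumours. The mice were females, labelled as aged 2 months at every time, and the labels do not say whether that is the age at injection. They received melanoma cells labelled cachectic (CAC), melanoma cells labelled non-cachectic (NCAC) or a mock injection (Con), and hippocampi were taken after 2, 4, 6 and 8 weeks. There were 4, 5, 5 and 7 CAC libraries at 2, 4, 6 and 8 weeks, 5, 5, 4 and 5 NCAC libraries, and 5 Con libraries at each time. The sample labels give the strain as C57BL6/J and the series description as NCI Ath/nude, a strain without a thymus that lacks most T cells, so which of them was used is not settled. The melanoma lines are not named in the sources used here, and the protocol text also mentions LLC (Lewis lung carcinoma) cells at 3 weeks, which match no group. The libraries are labelled biological replicates, but nothing states that each came from a different mouse, so the p-values below measure the spread between libraries.

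The libraries held between 32388197 and 42047145 reads, as recovered from the TPM values. Mean log2 levels of 6 pan-neuronal markers were 8.63 to 8.87 in all libraries. Those of pyramidal and granule neuron markers were 7.33 to 8.10. No other brain region was compared, so these markers show neurons in every library but do not identify the region. Markers of neighbouring striatum and thalamus or of erythrocytes were far above the median in 6 libraries, CAC 2 wk replicate 1, CAC 4 wk replicates 1 and 4, CAC 8 wk replicate 3, NCAC 4 wk replicate 5 and Con 4 wk replicate 2, which were used and then left out together as an alternative. The Con libraries at 8 weeks also stood apart in a technical measure: the slope of level on gene length was -0.10 to -0.09 in them, against -0.05 to 0.03 in CAC and -0.07 to -0.05 in NCAC libraries of that week. Libraries were compared with limma on log2(TPM + 0.5), with adjusted p-values over all 15608 genes tested, and a gene passed at an adjusted p below 0.05.

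The genes spanned nearly 3 orders of magnitude in level. Camk2a, the alpha subunit of CaMKII, had the highest mean over all libraries, 1789 TPM (range 1430 to 2090), followed by the AMPA subunit Gria1 at 636 TPM (494 to 779) and Camk2b at 555 TPM (428 to 774). Dlg4, the main MAGUK scaffold of the postsynaptic density, averaged 446 TPM, Gria2 254 TPM and the obligatory NMDA subunit Grin1 156 TPM. In all, 13 genes averaged 100 TPM or more. The lowest were Grm4 at 6.43 TPM, Grin2d at 6.07 TPM and Grm8, a presynaptic metabotropic receptor, at 2.16 TPM. Every gene was well covered: the smallest recovered read number of any of them in any library was 53. TPM here is scaled to a fixed length per gene, which equalled the union of annotated exons for 70.4% of genes with a single annotation. That length need not be the length of the transcripts present, so levels and ranks between genes depend on it. In CAC 2 wk replicate 1, Gria1 and Gria2 had 35197 and 35307 reads but 607 and 237 TPM. The lengths used were 6043 and 15548 bases.

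**Figure D1:**
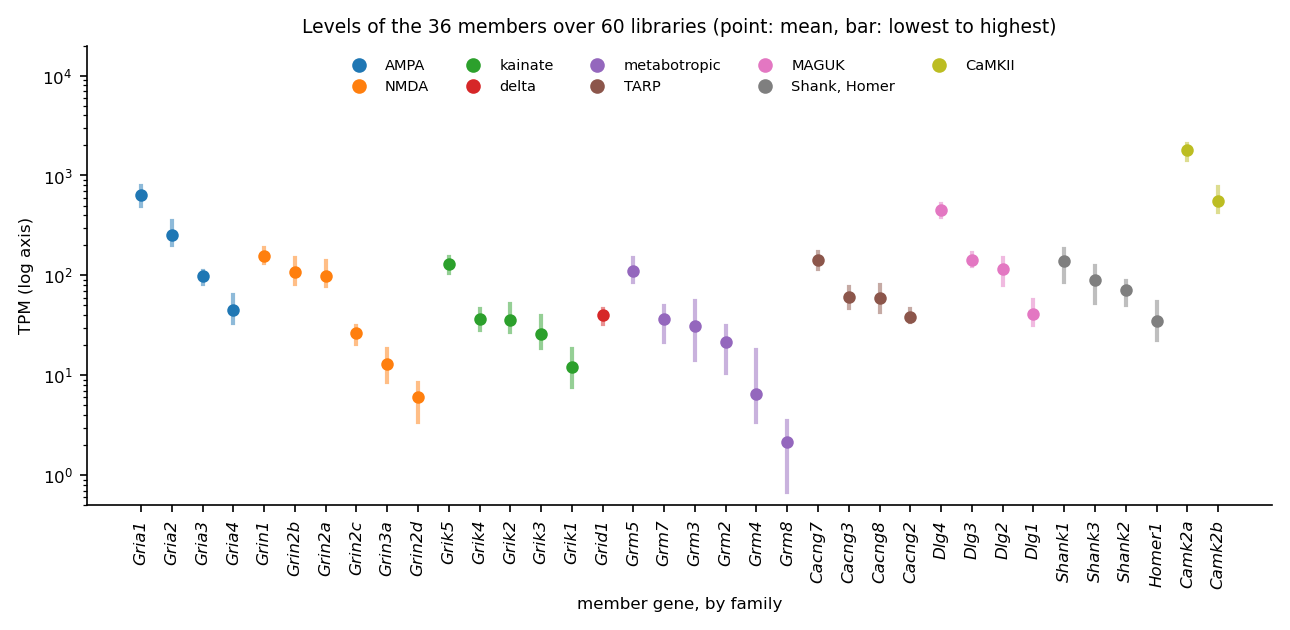
Level of each of the 36 genes, in TPM on a log axis, as the mean (point) and the range from the lowest to the highest (bar) of the 60 libraries; genes are ordered and coloured by family. Levels run from Camk2a, at 1430 to 2090 TPM, down to Grm8, at 0.679 to 3.49 TPM.

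Levels were steady across the study. The ratio of the highest to the lowest of the 12 group means was 2.05 for Grm3, 1.89 for Grm4 and 1.51 for Homer1, and below 1.5 for the other 33 genes, with 1.08 for Cacng2 the smallest. The median SD of log2 level within groups was 0.145 for these genes, against 0.153 for all genes tested. Grm4 (0.412), Grm8 (0.368), Grm2 (0.315) and Grm3 (0.304) had the widest spread of the 36, all of them metabotropic receptors, and Gria3 (0.088), Dlg3 (0.089) and Dlg4 (0.095) the narrowest.

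In none of the comparisons made, of injections or of time in Con mice, did 27 of the 36 genes pass. The share of all genes that passed in none is not given, so this number does not set the 36 apart. In CAC against Con mice none passed at 2 weeks, when 3.7% of all genes did (1.72% higher and 1.98% lower). None passed at 4 weeks (0.801%; 0.487% higher and 0.314% lower) or at 6 weeks (0.25%; 0.179% higher and 0.0705% lower). At 8 weeks 5 were higher in CAC (Camk2b, Gria2, Gria3, Dlg2 and Grik4) and 1 was lower (Grm3), against a background of 14.5% of all genes (11.3% higher and 3.2% lower). The median log2 difference over the 36 genes at 8 weeks was 0.03, against 0.05 over all genes, and 20 of the 36 were positive, against 61.1% of all genes. Averaged over the 4 times, 2 were higher in CAC (Camk2b and Grik4) and 2 lower (Grm3 and Grin3a), against 19.8% of all genes (14.9% higher and 4.95% lower). In CAC against NCAC mice none passed at 2 or 4 weeks, with a background of 0.0% and 0.0128%. Grm3 and Grm7 were lower at 6 weeks, against 1.77% of all genes (1.33% higher and 0.442% lower), and Grm3 was lower at 8 weeks, against 1.83% (1.26% higher and 0.564% lower). On average over the 4 times Grm3 was lower and Camk2b higher, against 15.7% (11.6% higher and 4.11% lower). At 8 weeks the 6 genes that passed against Con were a share near the background, the 4 that passed on average were a smaller share than the background, and the counts against NCAC rested on 1 or 2 genes. At 8 weeks the CAC and Con libraries did not overlap for 4 of the 36 genes (Camk2b, Dlg2 and Grm5 higher, Grm3 lower), against 7.02% of all genes. Both sets of comparisons use the same CAC libraries.

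Of the 36, the largest difference that passed between CAC mice and either other group was that of Grm3, which encodes a group II metabotropic glutamate receptor found on glia as well as on neurons and coupled to inhibition of adenylyl cyclase. It lies at chr5:9485541-9725170 on the minus strand (GRCm38/mm10). At 8 weeks the 7 CAC libraries had 15.3 to 26.5 TPM, with a median of 17.8 TPM. The NCAC libraries had 26.6, 40.8, 22.4, 32.7 and 46.5 TPM, and the Con libraries 33.0, 41.1, 38.1, 27.7 and 26.8 TPM. All CAC libraries lay below all Con libraries at that time, while the lowest NCAC library was inside the CAC range. The log2 difference was -0.74 ± 0.17 (SE) in CAC against Con mice, a fold of 0.600 (adjusted p = 0.00520), and -0.73 ± 0.17 in CAC against NCAC mice (adjusted p = 0.0164). The difference from NCAC did not pass without CAC 8 wk replicate 6 (adjusted p = 0.0518), without NCAC 8 wk replicate 2 (0.0808) or without NCAC 8 wk replicate 5 (0.118), nor when only these groups entered the fit (0.0755). The difference from Con passed without any 1 library.

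The lower Grm3 level was also seen at 6 weeks. The CAC libraries then had 14.1, 19.5, 25.0, 21.0 and 19.8 TPM, the NCAC libraries 29.8, 41.3, 36.4 and 25.5 TPM, and the Con libraries 30.9, 33.4, 28.7, 33.5 and 31.9 TPM. No CAC library reached the lowest of either other group, as was the case for 2.62% of all genes in either direction against Con and 7.34% against NCAC. Grm3 passed against NCAC (log2 difference -0.73 ± 0.20, adjusted p = 0.0406) with all 9 libraries and without CAC 6 wk replicate 3, but not without any 1 of the other 8, where the adjusted p was 0.0564 to 0.136. Nor did it pass with no filter on low levels (0.0597) or when only these groups entered the fit (0.0870). Against Con the difference of -0.68 ± 0.19 did not pass (adjusted p = 0.0882), and it did when the libraries rich in striatal, thalamic or erythrocyte markers were left out (-0.68, adjusted p = 0.0268).

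At 4 weeks the CAC libraries were widely spread in Grm3, at 32.6, 16.5, 28.4, 14.7 and 39.0 TPM, beside 31.2, 30.9, 36.6, 31.5 and 36.4 TPM in NCAC and 39.3, 47.6, 30.7, 32.5 and 33.6 TPM in Con libraries. The difference of -0.56 ± 0.19 from Con did not pass (adjusted p = 0.105): 2 CAC libraries were far below the Con values, 1 was slightly below them and 2 were among them. At 2 weeks the CAC libraries had 55.1, 33.9, 28.9 and 44.5 TPM, within and on both sides of the 31.9 to 35.1 TPM in NCAC and the 34.2 to 40.5 TPM in Con libraries. The value of 55.1 TPM is that of CAC 2 wk replicate 1, with striatal and thalamic marker lists 3.84 and 2.44 above their medians on the log2 scale. CAC 4 wk replicates 1 and 4, NCAC 4 wk replicate 5 and Con 4 wk replicate 2 were also among the 6 libraries rich in other markers. The part of other tissue in these Grm3 values was not tested beyond leaving out those libraries. Averaged over the 4 times, Grm3 was lower by -0.47 ± 0.09 against Con (adjusted p = 0.000418) and by -0.41 ± 0.09 against NCAC (adjusted p = 0.00243), and both calls held under every alternative and without any 1 library. The change of the CAC difference between 2 and 8 weeks was -0.82 ± 0.26 against Con (adjusted p = 0.259) and -0.97 ± 0.26 against NCAC (adjusted p = 0.0780). No gene of the 36 passed in either test of change with time, in which 0.00641% and 0.237% of all genes passed. The next smallest p-values against Con were those of Grin3a (-0.45, adjusted p = 0.317) and Grm4 (-0.80, 0.451), and against NCAC those of Grin3a (-0.43, 0.242) and Gria4 (-0.34, 0.248).

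**Figure D2:**
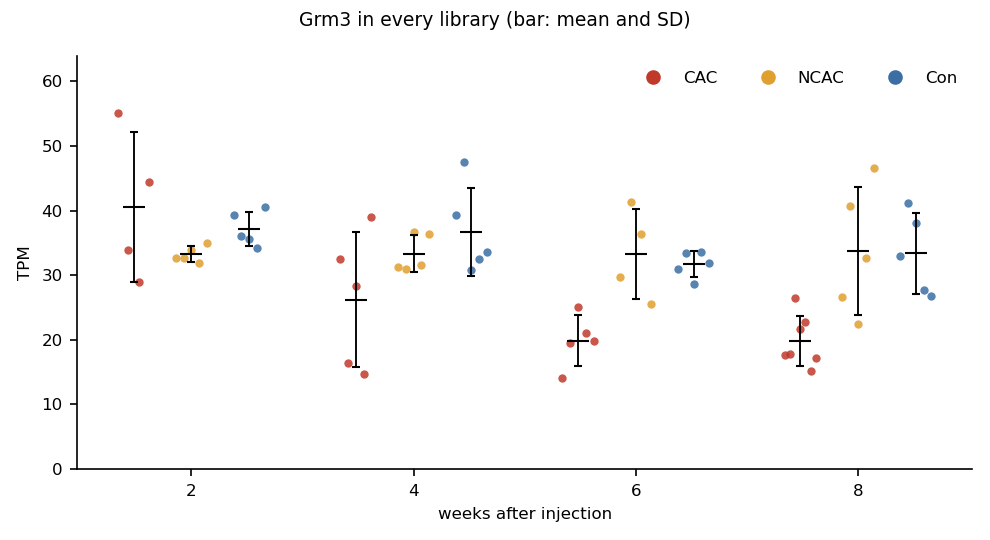
Grm3 level in TPM by week after injection, with 1 point per library and bars for the mean ± SD of CAC, NCAC and Con. The CAC means are 19.9 TPM at 6 weeks and 19.8 TPM at 8 weeks, and the NCAC and Con means stay between 31.7 and 37.1 TPM at all times.

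Because Grm3 is also made by glia, glial marker levels are given beside it. At 8 weeks the mean log2 level of 6 astrocyte markers was 7.33 to 7.74 in CAC, 7.48 to 7.73 in NCAC and 7.44 to 7.57 in Con libraries. Of those 6, Aldoc was higher in CAC than in Con mice (log2 difference 0.37) and Aqp4 lower (-0.59; 67.8 TPM in CAC against 98.3 TPM in Con). The mean over 5 oligodendrocyte precursor markers was 4.38 to 4.66 in CAC, 4.58 to 4.90 in NCAC and 4.54 to 4.76 in Con libraries. Against Con, 1 of the 5, Olig2, passed as lower in CAC (-0.32). Olig1 (-0.33, adjusted p = 0.0843) and Gpr17 (-0.29, 0.0766) were also negative but did not pass, and Pdgfra (0.12) and Cspg4 (0.01) were positive. The mean over 6 oligodendrocyte markers was 7.12 to 7.96 in CAC, 7.42 to 8.38 in NCAC and 7.25 to 8.00 in Con libraries, and none of the 6 passed. Of the last 6, 5 were negative in CAC against Con. The lowest of the markers of these 3 cell types, Cspg4, averaged 9.28 TPM in CAC and 9.23 TPM in Con libraries. The part of these levels in the Grm3 result was not tested, and in bulk tissue fewer cells of a type and less RNA per cell cannot be told apart.

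Of the 36 genes, Grm3 had the largest difference that passed, and it was lower in CAC than in Con mice at 8 weeks. Camk2b and Gria2 were higher in CAC than in Con mice then, and the Gria2 call depended on scaling, as given below. The sequences just before the start sites of these genes are shown. They are the 250 bases upstream of the start in RefSeq's GRCm38.p6 annotation, given on the gene's strand, at chr5:9725353-9725602 (minus strand) for Grm3, chr11:6065749-6065998 (minus) for Camk2b and chr3:80802836-80803085 (minus) for Gria2, with matches to the GC box letters GGGCGG, or CCGCCC for the other strand, in capitals. The Camk2b stretch lies inside the span given for the gene, whose annotated start there is further upstream.
Grm3 promoter: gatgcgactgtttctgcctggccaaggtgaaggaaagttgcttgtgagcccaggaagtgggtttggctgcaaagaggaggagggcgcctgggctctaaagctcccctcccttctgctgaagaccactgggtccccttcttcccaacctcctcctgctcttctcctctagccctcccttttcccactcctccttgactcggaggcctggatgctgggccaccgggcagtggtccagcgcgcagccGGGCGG
Camk2b promoter: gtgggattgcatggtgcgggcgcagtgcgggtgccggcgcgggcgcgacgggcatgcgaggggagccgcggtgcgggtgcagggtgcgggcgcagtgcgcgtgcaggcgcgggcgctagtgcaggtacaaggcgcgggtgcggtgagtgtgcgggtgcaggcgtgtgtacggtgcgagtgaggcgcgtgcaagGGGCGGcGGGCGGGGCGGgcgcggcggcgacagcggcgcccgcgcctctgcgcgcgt
Gria2 promoter: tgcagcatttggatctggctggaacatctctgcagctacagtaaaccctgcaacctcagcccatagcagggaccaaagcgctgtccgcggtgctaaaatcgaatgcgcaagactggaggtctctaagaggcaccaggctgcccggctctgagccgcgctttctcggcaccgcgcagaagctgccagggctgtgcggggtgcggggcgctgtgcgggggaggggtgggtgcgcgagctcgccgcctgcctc
The Grm3 stretch held 1 match at its very end, the Camk2b stretch 3, of which a pair share a base, and the Gria2 stretch none, and their GC contents were 62.4%, 78.4% and 64.8%, against a median of 52.4% over all promoters. Promoters were found for 24 of the 36 genes, and 16 of their 36 promoter entries (44.4%) held a GC box, against 32.7% of all 32851 entries. The cAMP response element TGACGTCA, its own reverse complement, was in none of the entries (1.55% of all). The E-box CACGTG, likewise palindromic, was in 3 (8.33% against 6.02%), and the glucocorticoid receptor half-site AGAACA, or TGTTCT on the other strand, was in 4 (11.1% against 16.1%).

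Camk2b, the beta subunit of CaMKII that binds actin and places the kinase at the spine, was higher in CAC mice. It lies at chr11:5969644-6066362 on the minus strand. At 8 weeks the CAC libraries had 547 to 661 TPM, with a median of 600 TPM. The NCAC libraries had 543, 475, 594, 527 and 428 TPM, and the Con libraries 492, 542, 455, 510 and 459 TPM. Every CAC library was above every Con library, and the NCAC libraries overlapped both groups. The log2 difference was 0.30 ± 0.08 against Con (adjusted p = 0.00942) and 0.24 against NCAC, which did not pass (adjusted p = 0.0811). Over the 4 times Camk2b averaged 600 TPM in CAC, 541 TPM in NCAC and 523 TPM in Con libraries. The average differences of 0.19 ± 0.04 from Con (adjusted p = 0.00118) and 0.15 ± 0.04 from NCAC (adjusted p = 0.0120) both passed, but that from NCAC did not after correction for GC content and length (adjusted p = 0.108). Its partner Camk2a was at 1895 ± 65.2 TPM in CAC, 1696 ± 84.2 TPM in NCAC and 1736 ± 98.0 TPM in Con libraries at 8 weeks (SD; n = 7, 5 and 5), and did not pass against Con (0.13, adjusted p = 0.190), although its CAC and NCAC values did not overlap, as for 1.15% of all genes.

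AMPA receptor subunits were higher in CAC than in Con mice at 8 weeks in 2 of 4 cases. Gria2, whose product makes the receptor impermeable to calcium, lies at chr3:80681450-80802835 on the minus strand. It had 219 to 272 TPM in CAC libraries with a median of 248 TPM. It had 223, 235, 276, 248 and 220 TPM in NCAC and 204, 220, 201, 206 and 204 TPM in Con libraries. The CAC and NCAC ranges overlapped almost fully, and the Con values were below nearly all of them. The log2 difference of Gria2 was 0.25 ± 0.08 against Con (adjusted p = 0.0228), and 0.04 against NCAC, with a 95% interval of -0.11 to 0.19. Gria3 had 90.9 to 108 TPM in CAC libraries, with a median of 101 TPM, against 96.1, 97.3, 99.9, 96.6 and 83.3 TPM in NCAC and 85.5, 93.6, 82.3, 86.6 and 89.1 TPM in Con libraries. Its difference from Con was 0.18 ± 0.05 (adjusted p = 0.0173), with 1 Con library inside the CAC range. The calls for Gria2 were lost without CAC 8 wk replicate 2 (adjusted p = 0.0632), Con 8 wk replicate 1 (0.0512) or Con 8 wk replicate 3 (0.0601), and that for Gria3 without CAC 8 wk replicate 2 (0.0525) or Con 8 wk replicate 3 (0.0640). Gria1 stood at 646 TPM in CAC and 561 TPM in Con libraries (0.20, adjusted p = 0.0753), and Gria4 at 40.6 TPM in CAC and 41.8 TPM in Con libraries (-0.04).

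Dlg2, a MAGUK scaffold that anchors NMDA receptors, had 106 to 124 TPM in CAC libraries at 8 weeks, with a median of 114 TPM, against 111, 107, 80.5, 110 and 98.1 TPM in NCAC and 91.7, 105, 95.8, 100 and 106 TPM in Con libraries. No Con library reached the lowest CAC value, and the log2 difference was 0.22 ± 0.07 (adjusted p = 0.0359). The kainate subunit Grik4, a high-affinity subunit, had 34.5 to 46.2 TPM in CAC libraries, with a median of 40.7 TPM, against 44.7, 32.8, 39.6, 40.3 and 29.3 TPM in NCAC and 30.7, 38.2, 28.4, 35.3 and 35.3 TPM in Con libraries. Its groups overlapped, with a difference of 0.27 ± 0.10 (adjusted p = 0.0475). Neither passed against NCAC (0.20 and 0.13). The Dlg2 call was lost without any 1 of 6 of the 12 libraries, CAC 8 wk replicates 2, 4 and 6 and Con 8 wk replicates 1, 3 and 4 (adjusted p 0.0595 to 0.107), and the Grik4 call without any 1 of 8, CAC 8 wk replicates 2, 5, 6 and 7 and Con 8 wk replicates 1, 3, 4 and 5 (0.0587 to 0.168).

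**Figure D3:**
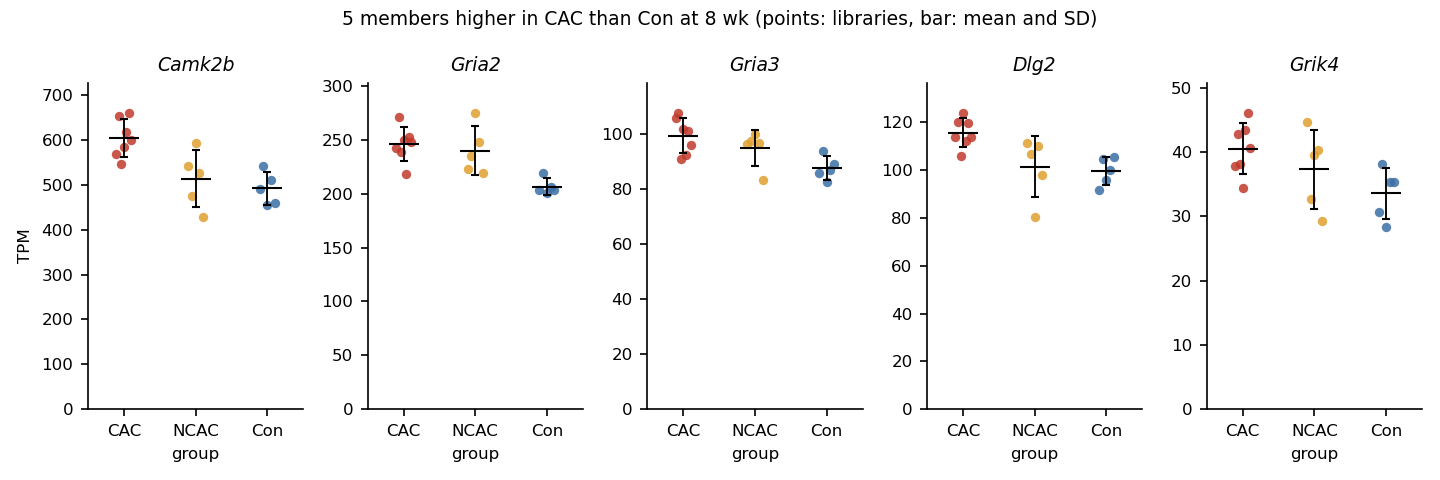
TPM of Camk2b, Gria2, Gria3, Dlg2 and Grik4 at 8 weeks, 1 point per library, for CAC (n = 7), NCAC (n = 5) and Con (n = 5), with the mean ± SD. The CAC and Con values are apart for Camk2b and Dlg2, and the NCAC values of Gria2, at 220 to 276 TPM, overlap nearly all of the CAC range of 219 to 272 TPM.

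The split of higher and lower calls at 8 weeks depended on scaling. With each library rescaled by the median of ratios, 1 of the 36 genes was higher in CAC (Camk2b) and 3 were lower (Grm3, -0.80; Grin3a, -0.35; and Cacng3, -0.26), in place of 5 and 1. After a correction for GC content and length, 1 was higher (Camk2b, 0.23, adjusted p = 0.0488) and 2 lower (Grm3, -0.77, adjusted p = 0.00533, and Grin3a, -0.38). Gria2, Gria3, Dlg2 and Grik4 kept their sign but did not pass in either, nor with voom on the recovered reads. Without the 6 libraries rich in markers of other tissue or blood, of which CAC 8 wk replicate 3 is 1 of these 12, 7 were higher and 3 lower. The genes added were Gria1 (0.21, adjusted p = 0.0291) and Grid1 (0.17, 0.0343), which were higher, and Cacng3 (-0.22, 0.0269) and Grin3a (-0.32, 0.0293), which were lower. Over all genes, 1409 passed after rescaling by the median of ratios, 1513 after the correction and 3527 without the 6 libraries. With none of these changes 2256 did. The Con libraries at 8 weeks had the lowest of the 12 group means for 11 of the 36 genes, Camk2b, Gria1, Gria2, Gria3, Dlg1, Dlg2, Dlg3, Grid1, Grin2a, Grin2b and Grm5, as for 34.4% of all genes tested. They had the highest for 5, Cacng8, Grin2c, Grin2d, Shank1 and Shank3, against 11.4% of all genes. The GC content was 36.8% to 53.9% in the 11 and 61.4% to 65.0% in the 5. The lengths used for the TPM of the 36 genes had a median of 6805 bases, against 3763 for all genes. The part of the length and GC differences between libraries in these results was not tested beyond that correction.

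The other receptor genes did not pass at 8 weeks against Con. None of the 6 NMDA subunits did: Grin1 differed by 0.06, with a 95% interval of -0.07 to 0.18, Grin2a by 0.21 (adjusted p = 0.171) and Grin2b by 0.17 (0.262). Grin3a, whose product lowers the calcium permeability of NMDA receptors, was closest with -0.29 ± 0.11 (adjusted p = 0.0538). Of the kainate subunits other than Grik4, Grik5 differed by 0.01 (-0.12 to 0.14), and Grik1, Grik2 and Grik3 by -0.02, 0.05 and 0.06. Among metabotropic receptors other than Grm3, Grm5, the postsynaptic receptor that mobilizes calcium, differed by 0.17 (adjusted p = 0.0992). Its 7 CAC values, 97.8 to 108 TPM with a median of 100 TPM, all lay above the Con values of 93.2, 93.4, 90.2, 87.9 and 87.3 TPM, and the NCAC values of 96.6, 101, 102, 108 and 104 TPM did too.

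The scaffold and auxiliary genes other than Dlg2 did not pass either. Dlg4 had a log2 difference of -0.00 from Con, with a 95% interval of -0.12 to 0.11, at 424 TPM in CAC and 425 TPM in Con libraries. Dlg1 and Dlg3 each differed by 0.05. Shank1, Shank2 and Shank3, the platform beneath the MAGUK layer, differed by -0.16, 0.10 and -0.10, and Homer1, which links Shank proteins to group I metabotropic receptors, by -0.14. Among the AMPA receptor regulatory proteins Cacng3 was closest with -0.20 (adjusted p = 0.0790), and Cacng2, Cacng7 and Cacng8 differed by 0.02, -0.03 and -0.14. Across the 36 genes the 95% interval reached 0.104 to 0.470 to either side of the difference, with a median of 0.167. These intervals were not adjusted for the number of genes tested, whereas a gene passed on its adjusted p. A change just beyond its interval's reach therefore need not pass, and the smallest change that could pass was not worked out.

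**Figure D4:**
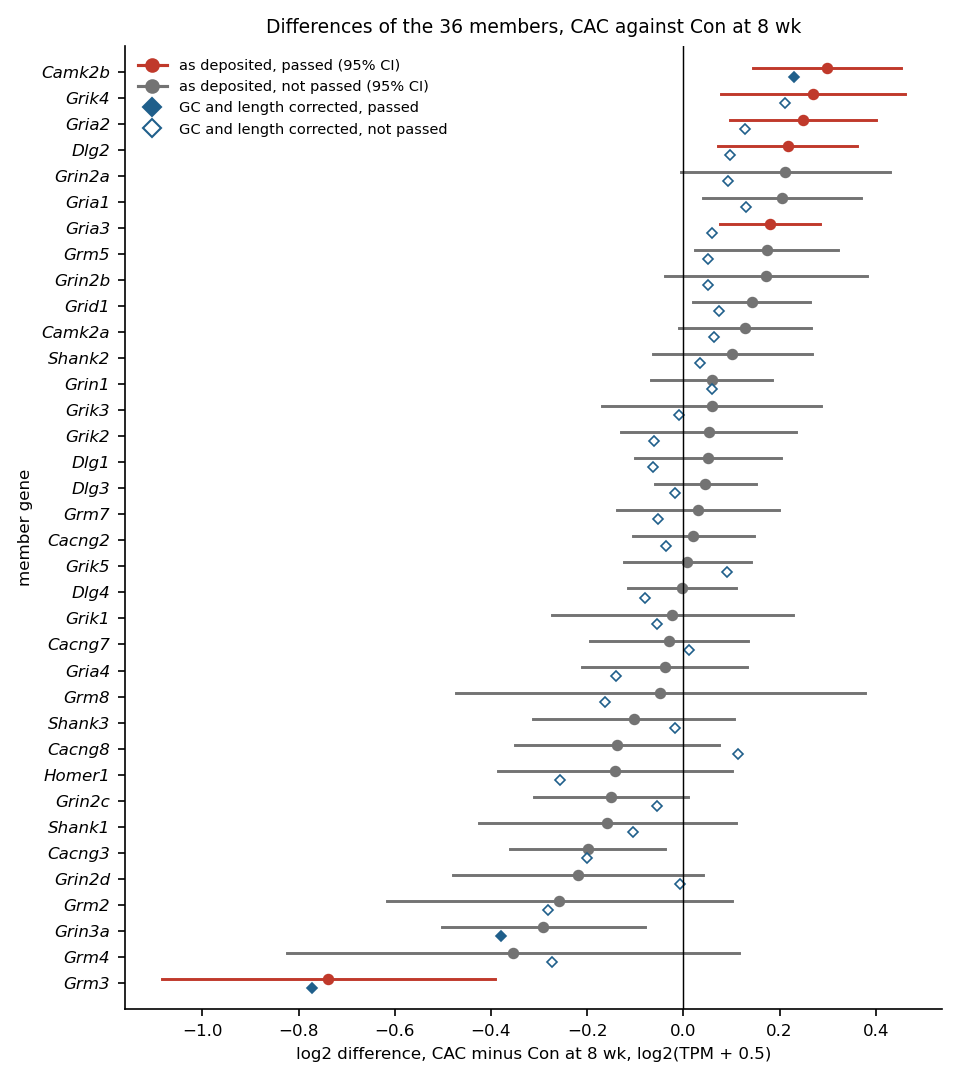
Log2 difference of each of the 36 genes at 8 weeks with its 95% interval, for CAC against Con (7 and 5 libraries), from highest to lowest; red circles passed at an adjusted p below 0.05, and diamonds give the difference after GC and length correction, filled where it passed. Grm3 lies at -0.74, the 5 genes that passed as higher lie between 0.18 and 0.30, and Dlg4, Grik5 and Grin1 lie within 0.06 of 0.

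Grin3a was lower in CAC than in Con mice on average over the 4 times, by -0.20 ± 0.06 (adjusted p = 0.0124; 12.007 TPM in CAC and 14.004 TPM in Con), and this call held without any 1 library. At 8 weeks it had 8.63 to 11.99 TPM in CAC libraries, with a median of 10.8 TPM, against 12.3, 15.5, 10.9, 12.9 and 13.2 TPM in NCAC and 13.4, 12.7, 14.3, 11.8 and 12.007 TPM in Con libraries. The CAC values were lower with a slight overlap. At 2 weeks the values were 14.03, 15.2, 15.2 and 16.7 TPM in CAC, 13.4 to 14.6 TPM in NCAC and 11.6 to 14.6 TPM in Con libraries, so CAC libraries were not lower then. Grik4, on the same average, was higher by 0.15 ± 0.05 (adjusted p = 0.0301; 38.8 TPM in CAC and 34.5 TPM in Con), a call that was lost without any 1 of 5 of the 41 libraries, CAC 2 wk replicates 2 and 4, CAC 4 wk replicate 2, Con 4 wk replicate 2 and Con 8 wk replicate 3 (0.0522 to 0.0613), and after rescaling by the median of ratios (0.0782) or correction for GC content and length (0.126).

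Grm7, a presynaptic receptor that restrains glutamate release, was lower in CAC than in NCAC mice at 6 weeks. The CAC libraries had 29.6, 21.7, 40.9, 27.4 and 29.8 TPM, the NCAC libraries 38.8, 42.6, 35.2 and 37.8 TPM and the Con libraries 33.5, 38.2, 37.0, 38.8 and 34.5 TPM. The third CAC library was above most libraries of the other groups and the other 4 were below all of them. The log2 difference from NCAC was -0.39 ± 0.10 (adjusted p = 0.0278), and that from Con was -0.31 (adjusted p = 0.122). The call was lost without any 1 of 6 of the 9 libraries, CAC 6 wk replicates 2 and 4 and each of the NCAC replicates (adjusted p 0.0512 to 0.0989), and it was lost when only these groups entered the fit (0.232). The group II receptor Grm2 had 17.1, 15.3, 17.3, 21.9 and 15.8 TPM in CAC and 28.3, 25.99, 22.1 and 24.3 TPM in NCAC libraries at 6 weeks, with no overlap, and did not pass (-0.52, adjusted p = 0.158).

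**Figure D5:**
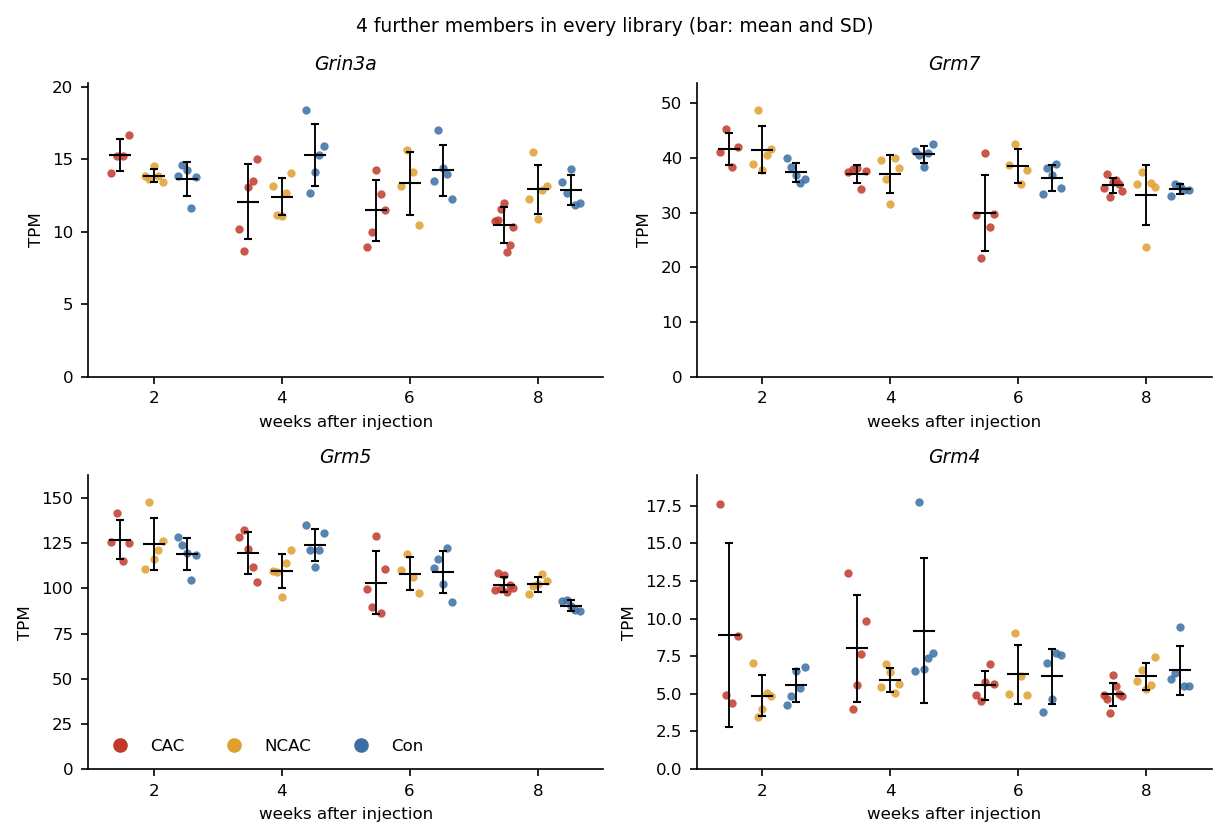
TPM of Grin3a, Grm7, Grm5 and Grm4 by week, with 1 point per library and bars for the mean ± SD of CAC, NCAC and Con. At 6 weeks 4 of 5 CAC libraries have the lowest Grm7 values, at 21.7 to 29.8 TPM, and Grm4 has single high libraries, at 17.6 TPM in CAC at 2 weeks and 17.8 TPM in Con at 4 weeks.

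At the earlier times the differences in CAC against Con mice were small. At 2 weeks 31 of the 36 genes were positive, against 63.8% of all genes, with a median of 0.09 against 0.06; the closest to passing were Grid1 (0.18, adjusted p = 0.118), Gria4 (0.25, 0.120) and Dlg4 (0.15, 0.140). After correction for GC content and length that median was 0.01. At 4 weeks the closest were Gria4, which had 44.4 TPM in CAC and 55.1 TPM in Con libraries (-0.32 ± 0.09, adjusted p = 0.0662), and Grin3a (-0.34, 0.102). All 5 CAC libraries were below all Con libraries in Grm7 at that time, at 34.3 to 38.1 TPM in CAC against 38.3 to 42.5 TPM in Con, as for 3.77% of all genes in either direction. At 6 weeks Grin3a differed by -0.31 (adjusted p = 0.241). Without CAC 4 wk replicate 5, 4 of the 36 genes passed at 4 weeks, 1 passed without Con 4 wk replicate 3, 1 passed at 2 weeks without CAC 2 wk replicate 4, and without CAC 6 wk replicate 3, 2 passed at 6 weeks. The share of all genes is not given for these counts. Grm4, a presynaptic receptor, reached 17.6 TPM in CAC 2 wk replicate 1, 13.0 TPM in CAC 4 wk replicate 1 and 17.8 TPM in Con 4 wk replicate 2, and its mean over all libraries was 6.43 TPM. In these libraries the striatal marker list was 3.84, 4.21 and 4.22 above its median on the log2 scale. The part of tissue outside the hippocampus in the Grm4 values was not tested. In CAC against NCAC mice the smallest p-values at 2 weeks were those of Grm4 (0.64, adjusted p = 0.680), Grin2c (0.19, 0.717) and Gria4 (0.17, 0.754), and at 4 weeks those of Grik3 (0.33, 0.232), Grm3 (-0.43, 0.297) and Dlg1 (0.15, 0.394).

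In NCAC against Con mice no gene passed limma's test at any time or on average, out of all 15608 (0.0%), and none did with limma's voom on the recovered reads. At an unadjusted p below 0.05 there were 0, 8, 0 and 4 of the 36 genes at 2, 4, 6 and 8 weeks and 1 on average, beside 9.72%, 9.85%, 3.76%, 7.85% and 2.43% of all genes. At 4 weeks the kainate subunit Grik3 had 22.0, 21.9, 21.8, 23.5 and 25.0 TPM in NCAC and 29.2, 37.7, 26.3, 30.3 and 31.3 TPM in Con libraries. The groups did not overlap, as for 1.92% of all genes, and the log2 difference was -0.42 (adjusted p = 0.294). Gria4 (-0.34, 0.293) and Dlg1 (-0.26, 0.332) were next to it. The smallest p-values at 2 weeks were those of Grin2c (-0.16, adjusted p = 0.535), Shank3 (-0.20, 0.539) and Dlg4 (0.11, 0.550), and at 6 weeks Grin2b, Dlg1 and Grid1 differed by -0.17, -0.12 and -0.09 (0.973 each). At 8 weeks Gria2 differed by 0.21, Cacng8 by -0.26 and Grm5 by 0.18 (0.634 each), and the NCAC and Con libraries did not overlap for Grm5, as for 2.81% of all genes.

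In Con mice at 8 weeks against Con mice at 2 weeks, 2 of the 36 genes were lower and none higher, against 9.67% of all genes (8.0% lower). Grm5 had 93.2, 93.4, 90.2, 87.9 and 87.3 TPM at 8 weeks and 128, 124, 120, 105 and 118 TPM at 2 weeks (-0.39 ± 0.08, adjusted p = 0.00466). Gria2 had 204, 220, 201, 206 and 204 TPM at 8 weeks and 298, 274, 266, 243 and 262 TPM at 2 weeks (-0.37 ± 0.08, adjusted p = 0.00611). After correction for GC content and length neither passed (adjusted p = 0.0936 and 0.570), and over all genes the number that passed fell from 1509 to 15. Collection time and these library properties cannot be told apart here.

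Other genes of the glutamate synapse were listed by role, and 84 of them were tested. In CAC against Con mice at 8 weeks 7 of the 84 were higher and 2 lower, against 11.3% higher and 3.2% lower of all genes, so neither share was above the background. None of the 14 further AMPA receptor partners passed; the closest was Cacng5, with 25.6 TPM in CAC and 14.1 TPM in Con libraries (0.84 ± 0.31, adjusted p = 0.0559). None of the 6 further receptor and kainate receptor partner genes passed. Of 23 postsynaptic scaffold partners only Dlgap1, which joins MAGUKs to Shank proteins, was higher (132 TPM in CAC and 111 TPM in Con; 0.25 ± 0.07, adjusted p = 0.0193). Of 18 synaptic adhesion genes the neurexin Nrxn3 (0.27, adjusted p = 0.00988) and Slitrk5 (0.18, 0.0383) were higher.

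Of the 13 CaMKII and calmodulin pathway genes 3 were higher and 1 lower, numbers too small to set apart from the 14.5% of all genes that passed. The phosphatase subunit Ppp1cc (0.21, adjusted p = 0.0107) and spinophilin, Ppp1r9b (0.20, 0.0324), were higher in CAC than in Con mice. The other two, chosen for naming after their values were seen, were the calcineurin subunit Ppp3cb (0.19, 0.0470) and the calmodulin-binding Nrgn, which was lower at 833 TPM in CAC against 1258 TPM in Con libraries (-0.63, 0.0467). Of 10 glutamate release and uptake genes, the glutamine transporter Slc38a3 was lower at 35.7 TPM in CAC against 49.7 TPM in Con libraries (-0.49 ± 0.11, adjusted p = 0.00460). Glutamine synthetase, Glul, was higher at 1427 TPM in CAC against 1110 TPM in Con libraries (0.36 ± 0.10, adjusted p = 0.0121). In CAC against NCAC mice at 8 weeks 1 of the 84 passed, Slc38a3, which was lower (-0.50, adjusted p = 0.0106). On average over the 4 times 11 were higher and 4 lower against Con, and 7 higher and 4 lower against NCAC. Of all genes 14.9% were higher and 4.95% lower against Con, and 11.6% and 4.11% against NCAC, so these counts were near or below the background. In NCAC against Con mice none passed at any time. The calls for the 84 genes come from limma on log2(TPM + 0.5) alone. None is given after rescaling, correction for GC content and length, or leaving out a library.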

How the data were processed

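Hippocampal RNA was extracted with Trizol, and TruSeq stranded mRNA libraries were sequenced on an Illumina NovaSeq instrument, per the labels' protocols. The authors deposited TPM per gene; the genome build was mm10, per the submitters' processing notes, and the sources used here do not give the aligner, the counter or the annotation. Whole reads were recovered from the TPM steps for 24227 of 24227 genes (100.0%, within 0.02 reads). Replicates were compared with limma (3.58.1, R 4.3.3) on log2(TPM + 0.5), with 12 group means fitted over all 60 libraries, for 15608 genes with at least 1 TPM in at least 4 libraries; p-values were Benjamini-Hochberg adjusted over them at 0.05. Alternatives were another pseudocount, no filter, median-of-ratios scaling, splines (5 df) of GC content and length on 15062 genes (96.5%), voom on recovered reads (1597 genes passed in CAC against Con at 8 weeks, 2256 by the test on TPM), marker covariates, without the 6 libraries rich in markers of striatum, thalamus or erythrocytes, a replicate block, only the compared groups, and each library left out. No libraries were duplicates: 123 pairs within groups had chi-square per degree of freedom of 9.19 to 66.9. Scripts were tested on simulated data. The 36 genes and all lists were chosen with earlier results of these data known. Genes were named where they passed, otherwise the 3 smallest p-values per comparison, and up to 2 per further list. Promoter sequences were RefSeq's.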

Additional observations from a re-analysis of the deposited data

Results flagged for a closer look

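Of 120 gene and group combinations checked over 10 genes, 8 had 1 library far from the others of its group by Dixon's 95% criterion; chance gives about 1 in 20 groups. Camk2b was 678 TPM in CAC 6 wk replicate 1, against 567.6 to 596 TPM in the other CAC libraries of that week. Gria2 was 220 TPM in Con 8 wk replicate 2 and 201 to 206 TPM in the others. Gria3 was 83.3 TPM in NCAC 8 wk replicate 5 and 96.1 to 99.9 TPM in the others. Grin3a was 11.6 TPM in Con 2 wk replicate 4 and 13.8 to 14.6 TPM in the others. Grm7 was 34.3 TPM in CAC 4 wk replicate 4 and 37.5 to 38.1 TPM in the others, and 23.7 TPM in NCAC 8 wk replicate 3 and 34.7 to 37.4 TPM in the others. Grm4 was 17.8 TPM in Con 4 wk replicate 2 and 6.49 to 7.75 TPM in the others, and 9.43 TPM in Con 8 wk replicate 3 and 5.50 to 6.42 TPM in the others.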

How the results depend on the processing

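None of the 17 gene differences named as passing changed sign in 551 recalculations, and 73 of these no longer passed. Of the 18 counts of genes passing, 8 were 0 and stayed 0 under every alternative run. The others, among them every count above 0, moved outside 1.5 times the reported value in at least 1 alternative, as follows. After the GC and length correction, 2 of the 36 genes passed in CAC against Con at 6 weeks, 3 at 8 weeks, 2 in CAC against NCAC at 8 weeks and 0 in Con at 8 against 2 weeks. Over all genes, 110, 1513, 452 and 15 passed in these. Without the 6 libraries rich in other markers, 1 passed in CAC against Con at 6 weeks, 10 at 8 weeks and 7 on average, 4 in CAC against NCAC at 8 weeks and 5 on average, and 4 in Con at 8 against 2 weeks. The numbers over all genes were 145, 3527, 2732, 1086, 2572 and 1927, in that order. When only the compared groups were fitted, 10 passed in CAC against Con at 8 weeks, 0 in CAC against NCAC at 6 and at 8 weeks, and 10 in Con at 8 against 2 weeks. With no filter, 1 passed in CAC against NCAC at 6 weeks, and with marker covariates 7 passed in CAC against Con on average. The numbers over all genes are not given for these last alternatives, the replicate block or the leaving out of single libraries. The cause of the moves was not tested.

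With a replicate block, 2 passed in CAC against Con at 8 weeks, 0 in CAC against NCAC at 6 and at 8 weeks and 1 on average. Against Con at 8 weeks the genes that passed were Grm3 (adjusted p = 0.0439) and Gria3 (0.0472), and Camk2b did not (0.0601). Against NCAC Grm3 did not pass at 6 weeks (0.0674) or 8 weeks (0.188), and Camk2b did not on average (0.0523). The numbers do not pair the libraries: over 56 same-numbered pairs the median correlation of deviations was -0.008 (-0.285 to 0.345), and 11 were over 0.1. The block was fitted within weeks, so it gave no value for Con at 8 against 2 weeks.

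Leaving out 1 library at a time gave 0 to 1 gene in CAC against Con at 2 weeks, 0 to 4 at 4 weeks, 0 to 2 at 6 weeks, 2 to 8 at 8 weeks and 3 to 7 on average. CAC against NCAC gave 0 to 2 at 6 weeks, 0 to 2 at 8 weeks and 2 to 3 on average, its change from 2 to 8 weeks 0 to 1, and Con at 8 against 2 weeks 2 to 6. The 8 week count against Con was 2 without CAC 8 wk replicate 2, 3 without Con 8 wk replicate 1 and 2 without Con 8 wk replicate 3. The average count was 7 without CAC 4 wk replicate 1, CAC 4 wk replicate 5 or Con 6 wk replicate 1. The Con count was 6 without Con 2 wk replicate 4. In CAC against NCAC at 8 weeks it was 0 without CAC 8 wk replicate 6, NCAC 8 wk replicate 2 or NCAC 8 wk replicate 5, and 2 without CAC 8 wk replicate 3 or NCAC 8 wk replicate 3, without either of which 1 gene passed in the change. Each of the 36 genes had at least 53 reads in each library.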
